A study of Mus musculus with 9 samples.

Results

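The mouse odorant receptor genes whose symbol ends in -ps and a number, the suffix used for pseudogenes, were described as a set. They were taken by symbol alone from the deposited table of expected counts, with Olfr1372-ps1 left out. The rule used no expression value, but it was set with earlier results of these data known. This gave 277 genes among 55291 in the table and among 1408 symbols beginning with Olfr. The other 1127 Olfr symbols, without the 3 tagged receptors, served for comparison.

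Odorant receptors are G protein-coupled receptors encoded by a very large gene family that lies in clusters on many chromosomes. A mature olfactory sensory neuron transcribes a single receptor allele at a high level and keeps the others silent, and the receptor protein, once made, feeds back to hold that choice. Many copies in the clusters are pseudogenes, whose reading frame has been broken by stop codons or small deletions, although some still have a promoter and can be transcribed.

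The libraries were made from poly(A) RNA of mature sensory neurons, dissociated from the main olfactory epithelium with papain and sorted for high reporter fluorescence and low DAPI. The mice carried Olfr1507-IRES-GFP, Olfr73-IRES-GFP or Olfr160-IRES-mCherry, alleles in which the receptor transcript also encodes a fluorescent protein behind an internal ribosome entry site. A group is named after its tagged allele and holds 3 libraries, 9 in all; all 3 groups share this preparation and carry a tag. Separate animals are not stated for the 3, so a p-value here covers the spread among libraries, which may be technical. The design text speaks of duplicates, while 3 libraries per group were analysed here. Bulk libraries from sorted cells cannot tell fewer cells with a transcript apart from less of it per cell.

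The libraries held 17212807 to 36230606 expected counts, and the tagged receptor took 85.1% to 94.7% of all Olfr counts in Olfr1507 libraries, 22.8% to 32.8% in Olfr73 libraries and 2.08% to 10.1% in Olfr160 libraries. In each library the labelled receptor had the highest count of the 3 tagged genes. Markers of mature olfactory neurons, 8 of 8 in the table and none at 0, took 7.88% to 8.16% of counts in Olfr1507, 5.20% to 5.36% in Olfr73 and 2.93% to 4.58% in Olfr160 libraries. Markers of sustentacular and gland cells, 8 of 8 in the table and none at 0, took 0.0195% to 0.0285% in Olfr1507, 0.267% to 0.449% in Olfr73 and 1.41% to 2.75% in Olfr160 libraries. Immature neuron markers, 8 of 8, took 0.0422% to 0.0491%, 0.0851% to 0.0983% and 0.144% to 0.161% in the Olfr1507, Olfr73 and Olfr160 libraries. Progenitor markers stayed at or under 0.0291% in every library, with Neurog1 at 0 in the Olfr1507 and Olfr73 groups. Respiratory markers stayed at or under 0.0981%, with Scgb1a1 at 0 throughout. Immune markers stayed at or under 0.00747%, with Csf1r and Ly6c2 at 0 in Olfr1507, and vomeronasal markers at or under 0.00846%.

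The suffix did not describe all 277 genes alike. In the GENCODE M21 annotation, to which all 277 were matched by transcript identifier, 196 were unprocessed pseudogenes, 12 transcribed unprocessed pseudogenes, 40 polymorphic pseudogenes, a class whose frame is intact in some individuals or strains, and 29 protein-coding genes. RefSeq listed 27 of these 29 as pseudogenes and Olfr1532-ps1 and Olfr911-ps1 as protein coding. The longest open reading frame of the 29 spanned 297 to 364 codons with a median of 316, against a median of 314 codons in 1105 other Olfr genes annotated as protein coding. It had a median of 232 codons in the polymorphic class, 180.5 in the transcribed class and 71.5 in the unprocessed class. Of the 248 symbols outside the protein-coding class, 3 reached 297 codons. For the 29 genes the GENCODE class and the length of the frame thus went against the name, which RefSeq keeps for 27 of them. They are called coding members below, after their GENCODE class.

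The sequences show both kinds of member. An aspartate, arginine and tyrosine triplet at the inner end of the third membrane helix is a hallmark of these receptors, and an in-frame match to its codons was present in the longest frame of 23 of 29 coding members (79.3%), against 872 of 1105 other coding Olfr genes (78.9%). It was present in 28 of 40 polymorphic, 7 of 12 transcribed and 15 of 196 unprocessed members. Among the 10 members with the most counts, 7 held it, and Olfr1326-ps1, Olfr364-ps1 and Olfr1369-ps1 did not. The exonic stretch around the triplet, with its codons in capitals, is given for 4 of these 10, in GENCODE M21 transcripts on mm10: Olfr1192-ps1 at chr2:88652487-88652537 on the plus strand, Olfr465-ps1 at chr13:65144606-65144656 on the plus strand, Olfr718-ps1 at chr5:143137802-143137852 on the minus strand and Olfr1291-ps1 at chr2:111499635-111499685 on the plus strand.
Olfr1192-ps1: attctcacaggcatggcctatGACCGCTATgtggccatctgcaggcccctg
Olfr465-ps1: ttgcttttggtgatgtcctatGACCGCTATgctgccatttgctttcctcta
Olfr718-ps1: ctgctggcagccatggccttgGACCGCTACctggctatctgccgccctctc
Olfr1291-ps1: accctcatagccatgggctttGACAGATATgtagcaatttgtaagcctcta

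Members were compared with their closest other Olfr frame of at least 900 nt. The alignment covered at least 80% of that frame for 40 of 40 polymorphic, 11 of 12 transcribed and 90 of 196 unprocessed members, and a gap that shifts the frame or a stop codon before it was found in 40, 11 and 89 of these. In the coding class 26 of 29 could be aligned in this way, and 11 of the 26 also had such a gap or stop. A gap near the end of the frame was counted like any other, and all 29 coding members kept a frame of at least 297 codons. The gaps in this class thus do not show that the frame is broken. The exonic stretches below show the first such gap in 4 members that had counts. Each is preceded by 24 bases and followed by 24 bases of aligned flank, and the capitals mark bases that the relative has and the member lacks. Within a short repeat the place of a gap is the aligner's choice.
Olfr537-ps1: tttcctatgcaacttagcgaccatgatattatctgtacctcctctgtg
Olfr538: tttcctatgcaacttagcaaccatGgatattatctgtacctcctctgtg
Olfr1021-ps1: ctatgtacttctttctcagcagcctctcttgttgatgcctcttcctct
Olfr1020: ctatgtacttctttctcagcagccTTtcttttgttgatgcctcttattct
Olfr947-ps1: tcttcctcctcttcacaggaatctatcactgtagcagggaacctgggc
Olfr27: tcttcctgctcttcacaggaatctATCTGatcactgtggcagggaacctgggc
Olfr188-ps1: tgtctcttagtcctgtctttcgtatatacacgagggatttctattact
Olfr190: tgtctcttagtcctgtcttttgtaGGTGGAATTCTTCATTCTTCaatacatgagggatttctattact

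Olfr537-ps1, a polymorphic pseudogene at chr7:140538701-140538748 on the plus strand, lacks 1 base at codon 77 of the 318 codons of Olfr538, with 97.5% identity over the aligned bases. Olfr1021-ps1, also polymorphic, at chr2:85863606-85863653 on the plus strand, lacks 2 bases at codon 73 of Olfr1020 (92.0% identity). Olfr947-ps1, polymorphic, at chr9:39289762-39289809 on the minus strand, lacks 5 bases at codon 35 of Olfr27 (90.0% identity), although the longest frame on its transcript had 323 codons. Olfr188-ps1, a transcribed unprocessed pseudogene at chr16:59050822-59050869 on the minus strand, lacks 20 bases at codon 149 of Olfr190 (95.1% identity). These 4 genes still had counts in some libraries. Olfr537-ps1 had 0, 0 and 0 counts in the Olfr1507 libraries, 48, 0 and 0 in the Olfr73 libraries and 98, 11 and 4 in the Olfr160 libraries. Olfr1021-ps1 had 0, 0 and 0, then 0, 62 and 0, then 0, 0 and 10 in the same order of groups. Olfr188-ps1 had 1, 0 and 0 in Olfr1507, 0 in each Olfr73 library and 5, 71 and 0 in Olfr160. Each of these 3 had most of its counts in a single library.

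Most members gave no counts at all. Of 277, 206 (74.4%) were listed at 0 in all 9 libraries, against 72 of 1127 other Olfr genes (6.39%). At least 10 counts in a library were reached by 42 members and at least 100 by 17, and 5 had counts in every library. All 277 together held 24552 counts. The coding members took 90.0% of these counts and the transcribed, polymorphic and unprocessed classes 5.79%, 3.80% and 0.401%.

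Detection differed between the classes. The name of the transcribed class itself refers to transcription, so class and detection are not independent there. How far the other classes and the transcript models rest on evidence of transcription was not examined. At least 10 counts in a library were found for 25 of 29 coding members, 6 of 12 transcribed, 10 of 40 polymorphic and 1 of 196 unprocessed members, and 187 of the 196 were at 0 everywhere. The single unprocessed member was Olfr1060-ps1, whose frame of 299 codons is 1 of the 3 long ones outside the coding class; it had 1, 67 and 0 counts in the Olfr160 libraries and 0 in all others. The coding members reached 10 counts about as often (86.2%) as the other coding Olfr genes (84.4%), which is given as a description.

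The extent of the transcript model moved with detection as well. Of coding members whose longest transcript model exceeds 1200 nt, 25 of 26 reached 10 counts, and of those with shorter models 0 of 3. In the polymorphic class the counts were 6 of 13 and 4 of 27, and in the transcribed class 5 of 6 and 1 of 6. Other coding Olfr genes showed 914 of 1000 and 19 of 105. All 196 unprocessed members have a model of at most 1141 nt. Long and short models could therefore not be compared within that class. Among models of at most 1200 nt, 1 of 196 unprocessed members reached 10 counts. The other classes had 19 of 105 other coding Olfr genes, 4 of 27 polymorphic, 1 of 6 transcribed and 0 of 3 coding members. Lengths within this range were not matched, and the parts of class and of model length in detection were not tested.

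**Figure D1:**
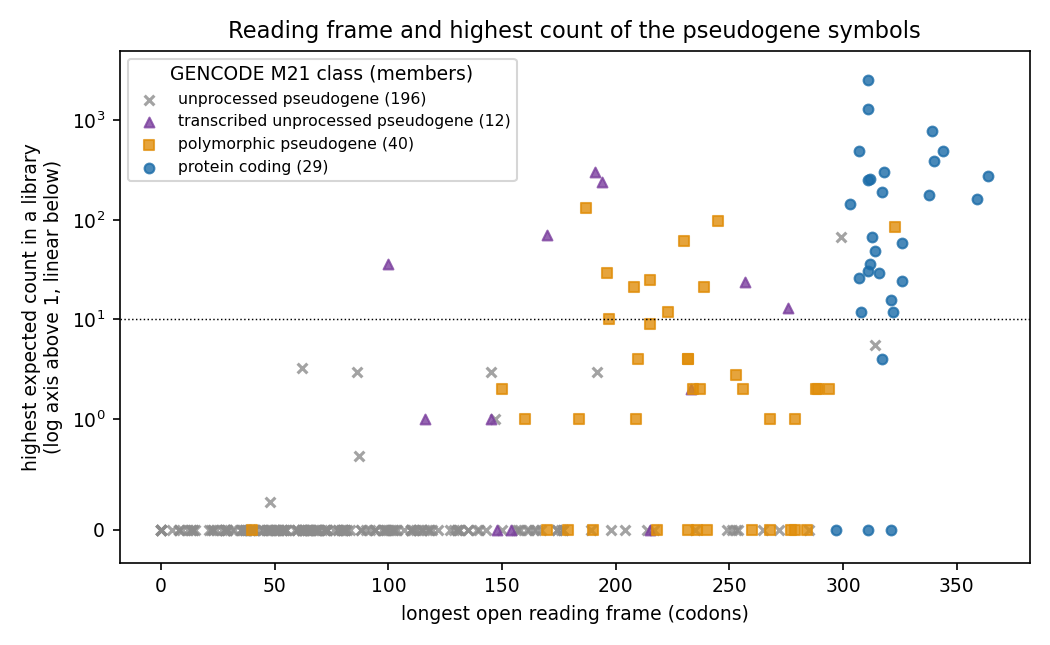
Longest open reading frame in codons (x axis) against the highest expected count in any of the 9 libraries (y axis, log above 1 and linear below) for the 277 members, marked by GENCODE M21 class. The 29 coding members lie at 297 codons or more and 25 of them lie above the dotted line at 10 counts, while 187 of 196 unprocessed pseudogenes lie at 0.

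**Figure D2:**
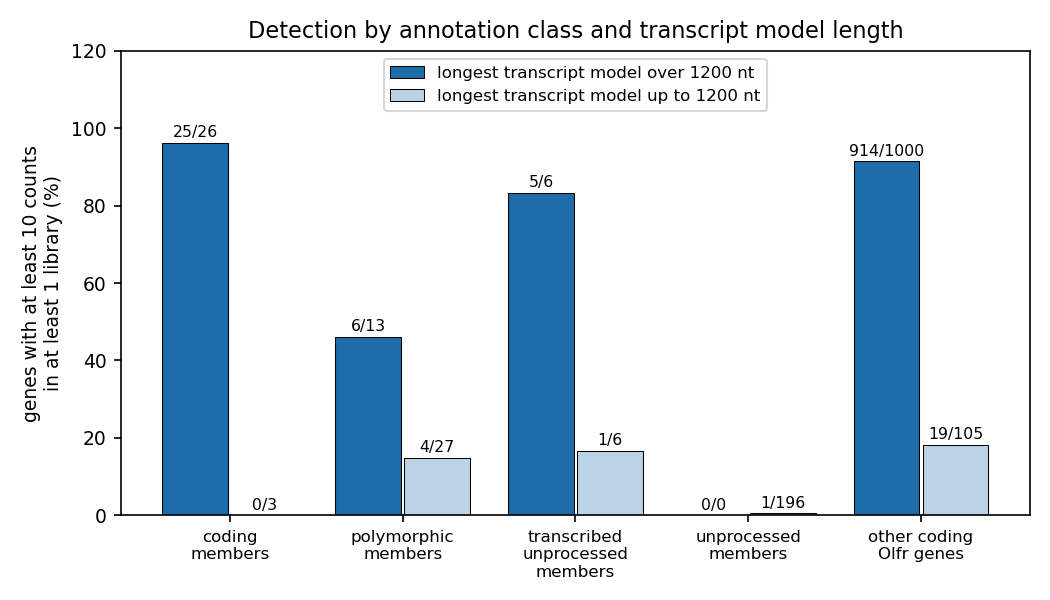
Percentage of genes with at least 10 counts in at least 1 library, by GENCODE M21 class and by the length of the longest transcript model, with the numbers of genes above the bars. Long models were detected more often in each class that has both, except that the coding members with short models number only 3.

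The level per gene within a library was compared in TPM, which is scaled for transcript length. Averaged over all 277, the log2 ratio of the members' mean TPM to that of the other Olfr genes was -2.49, -2.85 and -3.10 in the Olfr1507 libraries, -3.10, -3.67 and -2.70 in the Olfr73 libraries and -3.64, -3.05 and -3.31 in the Olfr160 libraries. The members were lower in 9 of 9 libraries, with a mean log2 ratio of -3.10 ± 0.40 (SD, n = 9), or 8.58-fold lower (exact two-sided sign-flip permutation test over libraries, p = 0.00391, adjusted over 4 such tests 0.00521). The share of genes with at least 10 counts was also lower among members in 9 of 9 libraries, with differences of -59.2 to -3.09 percentage points (mean -31.8, adjusted p = 0.00521, same exact test). The same 9 libraries carry all these tests, and they measure the constancy of the difference over libraries, not over genes.

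The 2 kinds of member stood far apart. For the 248 outside the coding class the log2 ratio was -5.83, -8.23 and -8.80 in Olfr1507, -5.48, -4.94 and -4.22 in Olfr73 and -5.63, -5.35 and -5.02 in Olfr160 libraries, with a mean of -5.94 ± 1.54 (SD, n = 9, adjusted p = 0.00521, exact sign-flip). For the 29 coding members it was 0.63, 0.37 and 0.13 in Olfr1507, -0.12, -1.09 and 0.02 in Olfr73 and -0.75, -0.09 and -0.52 in Olfr160 libraries. Their mean was -0.16 ± 0.54 (SD, n = 9), below 0 in 5 of 9 libraries, and the exact test gave an adjusted p of 0.414, which does not show that the levels are alike. Coding members exceeded the other Olfr genes in 3 of 3 Olfr1507 libraries and in 0 of 3 Olfr160 libraries, a difference between groups that was not tested. In Olfr1507 replicates 1, 2 and 3 a single coding member held 84.7%, 61.9% and 45.9% of the member counts. All members together had 295, 772 and 194 counts there, so the mean over the 29 genes may lean on single genes. The split by class was chosen after the counts had been seen.

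**Figure D3:**
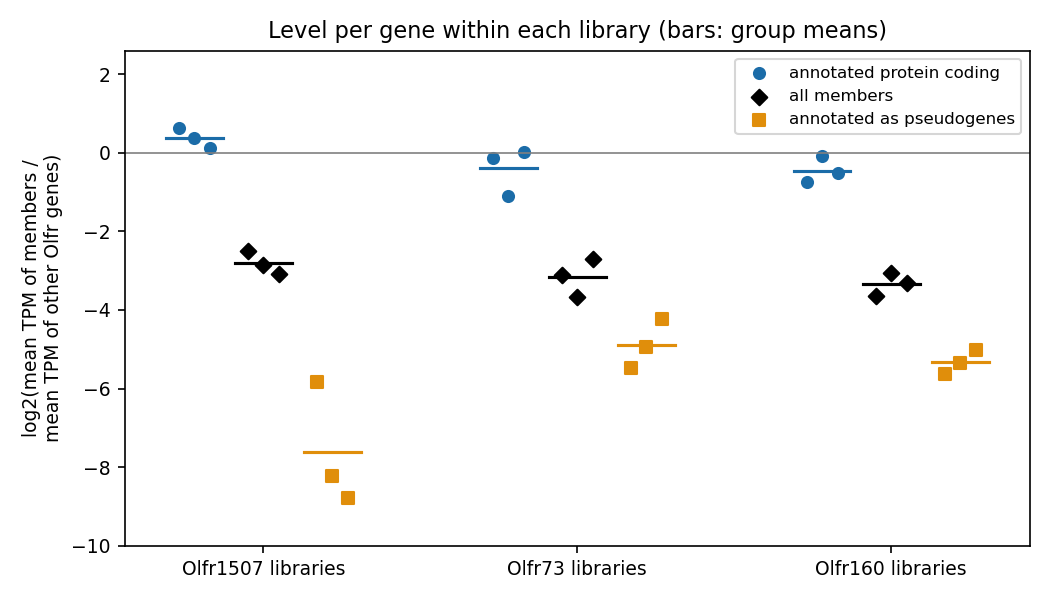
Log2 ratio of the mean TPM of members to that of the other Olfr genes in each library, for the coding members, all members and the members annotated as pseudogenes, by group (points: libraries, bars: group means). The coding members lie between -1.09 and 0.63, and the annotated pseudogenes between -8.80 and -4.22.

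The counts sat on few genes. Olfr1192-ps1 and Olfr1326-ps1 held 50.4% of all member counts and the 10 leading members 80.8%, of which 9 were coding members. Within a library the leading member took 84.7%, 61.9% and 45.9% of member counts in Olfr1507, 42.6%, 61.9% and 32.9% in Olfr73, and 27.3%, 32.7% and 25.8% in Olfr160. It was Olfr1192-ps1 in 5 libraries, Olfr1326-ps1 in 3 and Olfr1369-ps1 in Olfr1507 replicate 3. By chromosome, 75 members lie on chromosome 2, 52 on 7, 40 on 9, 28 on 19 and 20 on 11, and chromosome 2 held 45.4% of member counts and the X chromosome, with 2 members, 23.4%. The X counts were those of Olfr1326-ps1 alone, as Olfr1327-ps1 was at 0. Olfr1192-ps1, with 6641 counts in all, lies on chromosome 2. Of the other Olfr genes, 296 lie on chromosome 2 and 6 on X.

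Olfr1192-ps1 (chr2:88648509-88659772, plus strand, mm10; 4 exons, frame of 311 codons) had 250, 130 and 8 counts in the Olfr1507 libraries, 1301, 1193 and 76 in the Olfr73 libraries against 1160, 1306 and 1217 with the Olfr160 tag. These last lay close together, with a coefficient of variation of 2.84% in CPM, while the Olfr73 libraries differed 16.2-fold and the Olfr1507 libraries 30.2-fold between highest and lowest. Its mean level was 6.08 ± 6.70 CPM in Olfr1507 and 54.3 ± 1.54 CPM in Olfr160 libraries (SD, n = 3 each), a log2 fold change of -3.16 with SE 1.06 and an adjusted p by edgeR's quasi-likelihood test of 0.0341. In Olfr73 libraries it averaged 38.9 ± 30.6 CPM, and neither comparison with that group passed the threshold. The call over Olfr160 was lost without Olfr1507 replicate 2 or 3, without any 1 of the Olfr160 libraries and without the filter on low counts, with edgeR adjusted p up to 0.114.

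Olfr1326-ps1 (chrX:74569153-74574888, minus strand; 311 codons) had 5, 478 and 55 counts in Olfr1507 libraries, 681, 236 and 518 in Olfr73 libraries and 612, 2542 and 617 in Olfr160 libraries. A single library stood high in Olfr1507 and in Olfr160, and the Olfr1507 libraries overlapped those of Olfr73. Its log2 fold change for Olfr1507 over Olfr160 came to -3.02 (SE 1.03; adjusted p by edgeR 0.0355), a call lost without Olfr1507 replicate 1 or 3, without Olfr160 replicate 2 and without the filter on low counts, with adjusted p up to 0.137. Per transcript length it was the most abundant member, at 13.6 TPM averaged over the group means, ahead of Olfr1192-ps1 at 9.04, Olfr465-ps1 at 5.18, Olfr364-ps1 at 4.56, Olfr718-ps1 at 4.01 and Olfr333-ps1 at 3.81 TPM. The ranges of these 6 overlapped between libraries, so the order is that of the averages.

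Other leading members were spread unevenly within groups. Olfr465-ps1 (chromosome 13) had 9, 14 and 0 counts in Olfr1507, 155, 45 and 12 in Olfr73 and 169, 789 and 8 in Olfr160 libraries, an 89.7-fold range in CPM among the Olfr160 libraries. Olfr333-ps1 (chromosome 11), the only 1 of the 10 outside the coding class, had 0, 1 and 1 in Olfr1507, 0, 0 and 305 in Olfr73 and 129, 32 and 228 in Olfr160 libraries. In Olfr73 its counts came from replicate 3 alone. Olfr1369-ps1 (chromosome 13) had 0, 29 and 89 counts in Olfr1507, 170, 1.01 and 61 in Olfr73 and 145, 192 and 126 in Olfr160 libraries, and its Olfr160 values lay within 1.38-fold of each other in CPM.

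Olfr718-ps1 (chromosome 5) had 9, 1 and 26 counts in Olfr1507, 87, 39 and 2 in Olfr73 and 156, 493 and 248 in Olfr160 libraries. Olfr364-ps1 (chromosome 2) had 0, 10 and 0 in Olfr1507, 69.2, 7 and 12 in Olfr73 and 101, 292 and 490 in Olfr160 libraries. For both genes every Olfr160 library lay above all libraries of the other groups. Both were called lower in Olfr1507 over Olfr160, as were Olfr465-ps1 and Olfr333-ps1. That call was kept under all 19 alternatives for Olfr364-ps1. It was lost for Olfr718-ps1 without Olfr1507 replicate 1 or Olfr160 replicate 2 (edgeR adjusted p up to 0.066). For Olfr465-ps1 it was lost without any 1 of the Olfr1507 libraries, without Olfr160 replicate 2, without the low-count filter and in limma-trend on log2(TPM + 1) (edgeR or limma adjusted p up to 0.0882). For Olfr333-ps1 it was lost without any 1 of the Olfr1507 libraries, without Olfr160 replicate 1 or 3 and without that filter (edgeR adjusted p up to 0.107). Of the 42 members with at least 10 counts in a library, 33 had their highest count in an Olfr160 library, 8 in an Olfr73 library and 1, Olfr548-ps1 with 49 counts in replicate 2, in an Olfr1507 library. The highest library held a median of 58.2% of a gene's counts, and 15 of the 42 reached 10 counts in 1 library only. These 42 were chosen by their highest library, so the split of 33, 8 and 1 carries that choice. The summed level of the other Olfr genes was likewise highest in Olfr160 libraries, at 6245 to 7654 CPM. It was 130 to 405 CPM in Olfr1507 libraries.

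**Figure D4:**
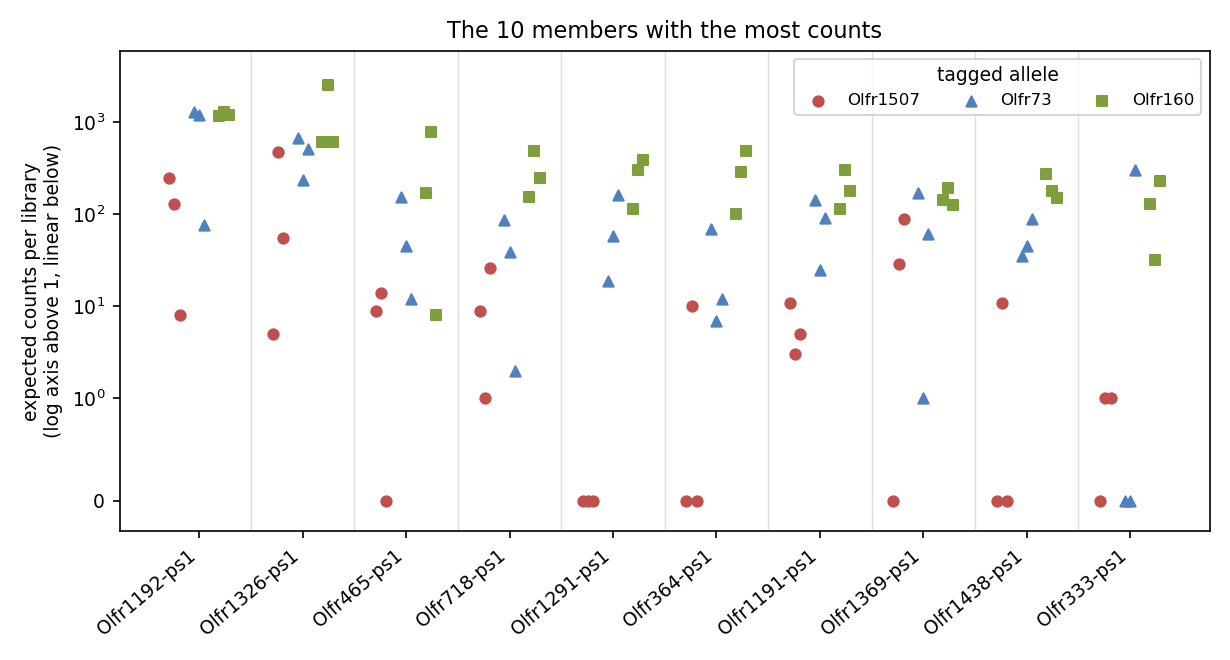
Expected counts per library (log axis above 1, linear below) of the 10 members with the most counts, with Olfr1507, Olfr73 and Olfr160 libraries from left to right for each gene. Olfr160 libraries are high for most genes, Olfr1192-ps1 is level among them at 1160 to 1306 counts, and Olfr333-ps1 has a single high Olfr73 library.

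Summed over all members, the level was 15.9, 25.5 and 10.8 CPM in Olfr1507 libraries, 134, 90.3 and 73.4 CPM in Olfr73 libraries and 205, 314 and 210 CPM in Olfr160 libraries. The groups did not overlap in any pair. The mean in Olfr1507 was 0.0717 of that in Olfr160 and 0.175 of that in Olfr73, and the mean in Olfr73 was 0.409 of that in Olfr160. With 3 libraries against 3 the exact two-sided permutation test cannot go below p = 0.1, which each of these reached (adjusted over 9 tests 0.129). The other Olfr genes had the same order, with 130 to 405 CPM in Olfr1507, 1428 to 2915 CPM in Olfr73 and 6245 to 7654 CPM in Olfr160 libraries. The number of members with at least 10 counts was 2, 8 and 3 in Olfr1507, 22, 14 and 12 in Olfr73 and 26, 29 and 24 in Olfr160 libraries, again without overlap between groups (p = 0.1 for each pair, exact permutation). The share of other Olfr genes with at least 10 counts had the same order, also without overlap. It was 3.82% to 19.3% in Olfr1507, 28.9% to 44.5% in Olfr73 and 55.3% to 69.7% in Olfr160 libraries. With all libraries thinned to an equal depth, the members numbered 1, 5 and 3 in Olfr1507, 21, 13 and 11 in Olfr73 and 26, 27 and 22 in Olfr160. The marker shares of sustentacular and gland cells, immature neurons, progenitors and immune cells were ordered in the same way without overlap between groups (progenitors 0.000382% to 0.000519% in Olfr1507, 0.00445% to 0.00545% in Olfr73 and 0.0148% to 0.0291% in Olfr160 libraries), and the share of the tagged receptor ran the other way; their part in these levels was not tested.

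As a share of all untagged Olfr counts, the group means of the members ran in the opposite order. They took 10.9%, 5.92% and 4.80% in Olfr1507 libraries, 4.43%, 3.00% and 4.89% in Olfr73 libraries and 2.92%, 3.94% and 3.25% in Olfr160 libraries. The 95% Wilson intervals, which cover counting error only, ran from 9.76% to 12.1% for Olfr1507 replicate 1 and from 2.84% to 3.01% for Olfr160 replicate 1. Olfr1507 libraries lay above Olfr160 libraries without overlap (mean 7.20% and 3.37%, exact permutation p = 0.1), and the other pairs overlapped (p = 0.2 for Olfr1507 and Olfr73, p = 0.3 for Olfr73 and Olfr160). As a share of untagged Olfr TPM the members took 4.19%, 3.29% and 2.79% in Olfr1507 and 1.94%, 2.88% and 2.42% in Olfr160 libraries, which overlapped (exact permutation p = 0.2). Without Olfr1507 replicate 1 the difference in the share of counts between these groups was 1.99 percentage points, in place of 3.83. The share rested on the 2 leading genes: without Olfr1192-ps1 and Olfr1326-ps1, a choice made after seeing the data, it was 1.63%, 1.32% and 3.29% in Olfr1507, 1.60%, 0.795% and 3.10% in Olfr73 and 1.72%, 2.03% and 2.01% in Olfr160 libraries. The groups then overlapped in every pair.

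**Figure D5:**
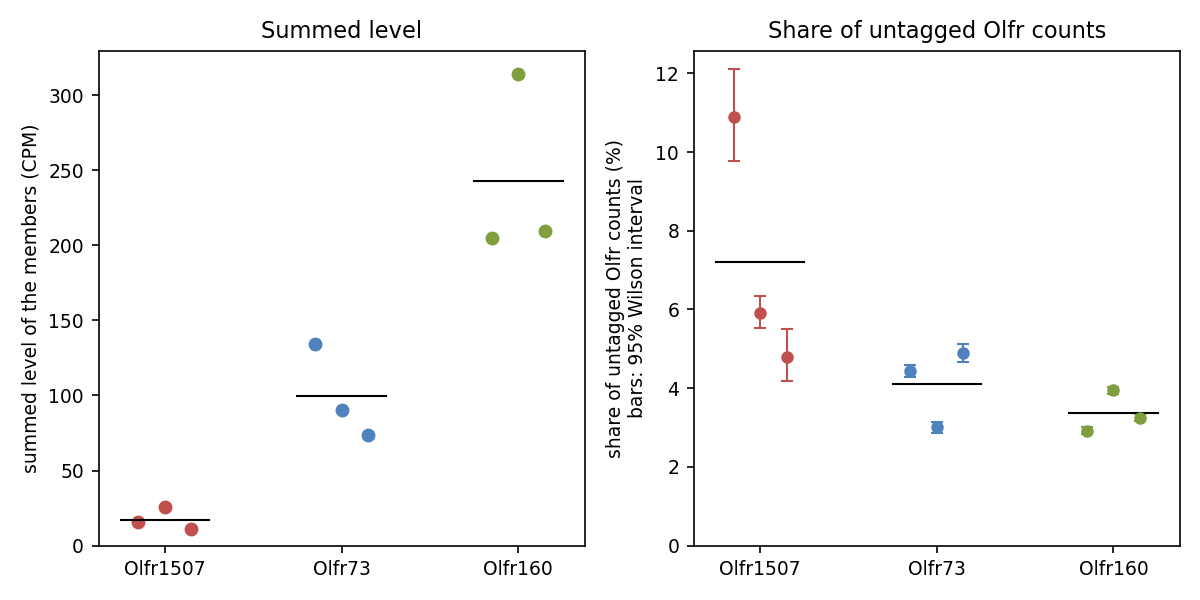
Left, summed level of the 277 members in CPM, and right, their share of untagged Olfr counts in percent with 95% Wilson intervals, for each library by group (black lines: group means). The summed level runs from 10.8 CPM in an Olfr1507 library to 314 CPM in an Olfr160 library, and the share from 2.92% to 10.9%.

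In the fit across 16399 genes, 22 members passed the filter on low counts. Most of them passed through the group where they are high, so the numbers below describe these 22 and not the 277. In Olfr1507 over Olfr160, 0 of 22 were higher and 19 lower, where 20.7% of all genes tested were called higher and 27.7% lower (edgeR, adjusted p under 0.05). In Olfr1507 over Olfr73, 0 were higher and 5 lower, where 14.5% and 19.9% of all genes were called. In Olfr73 over Olfr160, 0 were higher and 4 lower, where 7.45% and 10.5% of all genes were called. The median log2 fold change of the 22 was -5.82, -3.30 and -1.78 in these comparisons, against -0.14, -0.15 and -0.01 over all genes tested. The 665 other Olfr genes tested had medians of -5.92, -4.09 and -1.75, with 512, 258 and 96 called lower and 0 called higher. The 3 comparisons share libraries. DESeq2 also called 0 members higher in each comparison, and at an unadjusted p under 0.05 edgeR gave 0 of the 22 higher in each. Without the filter on low counts 70 members were tested. Of these, edgeR gave 1 higher in each comparison at an unadjusted p under 0.05 and 0 at the adjusted threshold. The fits without any 1 of the Olfr1507 libraries or without Olfr73 replicate 3 gave 1 higher at the unadjusted p in Olfr73 over Olfr160.

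Olfr721-ps1 (chromosome 14, 338 codons) had 4, 6 and 2 counts in Olfr1507, 56, 25 and 140 in Olfr73 and 54, 179 and 118 in Olfr160 libraries. It was lower in Olfr1507 than in Olfr160 (log2 fold change -4.79 with SE 0.79 and edgeR adjusted p = 0.00117) and than in Olfr73 (-4.21, SE 0.77, edgeR adjusted p = 0.00345). No Olfr1507 library reached the lowest library of the other groups.

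Olfr1291-ps1 (chromosome 2, 340 codons) had 0 counts in each Olfr1507 library, 19, 58 and 161 in Olfr73 libraries and 115, 306 and 392 in Olfr160 libraries. Against a floor of 3 counts over the Olfr1507 group it was at least 266-fold lower in Olfr1507 than in Olfr160 and at least 80.8-fold lower than in Olfr73 (edgeR adjusted p = 0.000949 and 0.00351). The second call was lost in limma-trend on log2(TPM + 1), with a limma adjusted p of 0.0871. Olfr1291-ps1 is 97.1% identical over 974 aligned bases to Olfr1293-ps.

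Olfr1438-ps1 (chromosome 19, 364 codons) had 0, 11 and 0 counts in Olfr1507, 35, 45 and 88 in Olfr73 and 278, 181 and 149 in Olfr160 libraries. The groups did not overlap, and it was lower in Olfr1507 than in Olfr160 (log2 fold change -5.94 with SE 1.05 and edgeR adjusted p = 0.00173) and than in Olfr73 (-4.13, SE 1.00, edgeR adjusted p = 0.0123). Olfr1224-ps1 (chromosome 2, 311 codons) had 0, 5 and 0 in Olfr1507, 25, 50 and 31 in Olfr73 and 249, 110 and 25 in Olfr160 libraries, and it passed in the same 2 comparisons (log2 fold changes -6.34 with SE 1.24 and -4.50 with SE 1.19; edgeR adjusted p = 0.00297 and 0.0179). The second call was lost without Olfr1507 replicate 1 or replicate 3 and in limma-trend on log2(TPM + 1), with edgeR or limma adjusted p up to 0.111.

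Olfr1532-ps1 (chromosome 7, 359 codons), 1 of the 2 that RefSeq lists as coding, had 0 counts in the 6 Olfr1507 and Olfr73 libraries and 164, 41.0 and 85.2 in the Olfr160 libraries. It was at least 94.8-fold lower in Olfr1507 and at least 93.1-fold lower in Olfr73 than in Olfr160 (edgeR adjusted p = 0.00345 and 0.0118). It passed the filter on low counts only through its Olfr160 libraries, and these p-values carry that selection. It is 98.9% identical over 923 aligned bases to Olfr707, and its fractional counts show that reads were divided between genes. Olfr947-ps1, shown above with its 5-base gap, also had 0 counts in those 6 libraries and 84, 71 and 34 in Olfr160 libraries, at least 61.8-fold and at least 60.7-fold lower in Olfr1507 and Olfr73 (edgeR adjusted p = 0.0033 and 0.0116). Olfr947-ps1 too passed the filter only through Olfr160 libraries. Without Olfr160 replicate 2 its call in Olfr73 over Olfr160 was lost, with an edgeR adjusted p of 0.0574.

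Olfr839-ps1 (chromosome 9) had 0 counts in each Olfr1507 library, 0, 1 and 0 in Olfr73 and 34, 36 and 29 in Olfr160 libraries, 1.46 ± 0.17 CPM (SD, n = 3) in the last group. It passed in Olfr1507 over Olfr160, at least 32.4-fold lower (edgeR adjusted p = 0.00277), and in Olfr73 over Olfr160 (edgeR adjusted p = 0.0149), the second of which was lost without Olfr160 replicate 1 or 2 (edgeR adjusted p up to 0.0704). The filter on low counts kept Olfr839-ps1 only through its Olfr160 libraries, and these p-values carry that selection. Olfr1025-ps1 (chromosome 2) had 0, 20 and 7 counts in Olfr1507, 15, 20 and 1 in Olfr73 and 143, 215 and 256 in Olfr160 libraries. It was lower in Olfr1507 (log2 fold change -4.61 with SE 1.09 and edgeR adjusted p = 0.00746) and in Olfr73 (-4.02, SE 1.05, edgeR adjusted p = 0.0308) than in Olfr160. The call in Olfr73 over Olfr160 was lost without Olfr73 replicate 1 or without any 1 of the Olfr160 libraries, with an edgeR adjusted p up to 0.089.

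The calls in Olfr73 over Olfr160 leaned on single libraries. Without Olfr160 replicate 2 only 1 member was called lower and without Olfr160 replicate 1 only 2, in place of 4. Over all genes 976 and 1408 were then called, in place of 2936, and 1878 without Olfr73 replicate 3. In Olfr1507 over Olfr73, 10 of 28 members tested were called lower without Olfr73 replicate 3, in place of 5 of 22, while 3229 of 17227 genes were called lower, in place of 3261 of 16399.

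Some members lie near a tagged receptor. Within 1 Mb of Olfr73 on chromosome 2 lie 21 members and of Olfr160 on chromosome 9 lie 9, and none lies that close to Olfr1507 on chromosome 14. Near Olfr73, 7 of 21 had any count and 4 reached 10 in a library, and near Olfr160, 4 of 9 and 3 of 9. Over all members, 71 of 277 had any count and 42 of 277 (15.2%) reached 10 in a library. A part of nearness in these numbers was not tested. Olfr1191-ps1, 603 kb from Olfr73, had 11, 3 and 5 counts in Olfr1507, 145, 25 and 92 in Olfr73 and 113, 301 and 179 in Olfr160 libraries. It was lower in Olfr1507 than in Olfr160 (log2 fold change -4.75 with SE 0.81 and edgeR adjusted p = 0.00147) and than in Olfr73 (-3.64, SE 0.79, edgeR adjusted p = 0.00749). Olfr1192-ps1 lies beside it, 611 kb from Olfr73. Olfr1185-ps1, 456 kb from Olfr73, had 0 in each Olfr1507 library, 18, 0 and 0 in Olfr73 and 144, 35 and 0 in Olfr160 libraries, so that a library of each group was at 0; the call in Olfr1507 over Olfr160 had an edgeR adjusted p of 0.0498 and was lost in 11 of 17 alternatives, among them the fits without any 1 of the Olfr1507 libraries, Olfr73 replicate 2 or Olfr160 replicate 1 or 2, with edgeR or limma adjusted p up to 0.138.

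Closer still, Olfr1150-ps1 at 183 kb had 2, 0 and 0 counts in Olfr73 libraries and 4, 0 and 4 in Olfr160 libraries, and Olfr1171-ps1 at 215 kb had 13 counts in Olfr160 replicate 1 alone. Olfr1159-ps1, at 33.1 kb the nearest of all, was at 0 in all libraries. Around Olfr160, Olfr911-ps1 at 805 kb had 1, 0 and 0 counts in Olfr1507, 31, 0 and 2 in Olfr73 and 0, 29 and 1 in Olfr160 libraries. Olfr896-ps1 had 12 counts in Olfr73 replicate 1 alone, Olfr892-ps1 10 and Olfr897-ps1 9 in Olfr160 replicate 3 as their highest. The remaining members within 1 Mb were Olfr475-ps1 with 2.77 counts, Olfr1117-ps1 with 2 counts, and 19 that were at 0 throughout, Olfr1159-ps1 among them.

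The level of a member was compared with that of its nearest other Olfr gene, at a median distance of 7436 bp. Over 276 members with such a neighbour on their chromosome, Spearman's rho of the TPM averaged over groups was 0.07, and over the 29 coding members 0.39. These are descriptions across genes, which share libraries and clusters and are not independent. Of 205 of these members at 0, 184 had a neighbour with counts. Of all 1127 other Olfr genes only 72 (6.39%) were at 0, so a neighbour with counts does not set these members apart. Olfr1192-ps1 and Olfr1191-ps1 share the neighbour Olfr1193, which had 5, 5 and 0 counts in Olfr1507, 302, 176 and 56 in Olfr73 and 471, 1057 and 613 in Olfr160 libraries. Olfr1326-ps1 has Olfr1325, with 0, 58 and 1 counts in Olfr1507, 52, 19 and 38 in Olfr73 and 96, 226 and 1839 in Olfr160 libraries. The Olfr160 library that was high for Olfr1325 was replicate 3 and for Olfr1326-ps1 replicate 2.

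Reads shared with close copies limit some values. Olfr1369-ps1 is 98.1% identical to Olfr263, its nearest neighbour, Olfr1191-ps1 97.8% to Olfr1193 and Olfr364-ps1 97.7% to Olfr365, and how reads were divided between such copies is uncertain. Of the 277 members, 14 had at least 1 count that was not whole. Exons of 8 members overlap another gene, and the highest count among these 8 was 4.

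Genes of receptor choice and feedback, a list of 18 with all 18 tested, moved in both directions. In Olfr1507 over Olfr160, 7 rose and 3 fell (median log2 fold change 0.26, against -0.14 over all genes), in Olfr1507 over Olfr73 5 rose and 2 fell (0.05 against -0.15), and in Olfr73 over Olfr160 4 rose and 0 fell (0.20 against -0.01). Over all genes tested, 20.7% were higher and 27.7% lower in the first comparison, 14.5% and 19.9% in the second and 7.45% and 10.5% in the third. In Olfr1507 over Olfr73, 3 rose without Olfr1507 replicate 1 or Olfr73 replicate 3. In Olfr73 over Olfr160, 1 rose without any 1 of the Olfr73 libraries, without Olfr1507 replicate 3, without Olfr160 replicate 1 or 2 and with only the 6 libraries compared, and 2 rose without Olfr1507 replicate 1 or 2. Without Olfr160 replicate 1 the median there was -0.01. In both limma-trend fits 2 rose and 3 fell in Olfr1507 over Olfr73. With library size alone in place of TMM, which moves the median of all genes to -0.56, -0.47 and -0.12, the counts were 5 higher and 4 lower, 3 and 5, and 3 and 0. Adcy3, the adenylyl cyclase of odorant transduction and part of the feedback that holds the choice, averaged 1495 CPM in Olfr1507 and 494 CPM in Olfr160 libraries (log2 fold change 1.60 with SE 0.20 and edgeR adjusted p = 0.000249), against 607 CPM in Olfr73 libraries (edgeR adjusted p = 0.00136). Adcy3 is also among the mature olfactory neuron markers counted above, whose share was likewise highest in Olfr1507 libraries. The part of neuron content in its level was not tested. Cbx5, a heterochromatin protein, fell in Olfr1507 against both groups (-0.94 with SE 0.11 over Olfr160 and -0.78 with SE 0.11 over Olfr73, edgeR adjusted p = 0.000224 and 0.00119), and the second call was lost in both limma-trend fits, with adjusted p up to 0.057. Ddit3, a transcription factor of the unfolded protein response, rose in Olfr73 over Olfr160 (1.08 with SE 0.16, edgeR adjusted p = 0.00408). It rose likewise in Olfr1507 over Olfr160 (1.13 with SE 0.16, edgeR adjusted p = 0.000499) and did not pass in Olfr1507 over Olfr73 (0.05 with SE 0.16). Ebf4, of a family of factors that bind receptor promoters, also rose in Olfr73 over Olfr160 (0.83 with SE 0.23, edgeR adjusted p = 0.0372), but that call was lost in 11 of 19 alternatives, with adjusted p up to 0.133.

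Transcripts with an early stop codon can be substrates of nonsense-mediated decay, and the 16 listed genes of that pathway were all tested. Whether transcripts of the members are such substrates was not examined, and a part of this pathway in their levels was not tested. In Olfr1507 over Olfr160, 7 rose and 0 fell (median log2 fold change 0.38), in Olfr1507 over Olfr73 4 rose and 1 fell (0.17), and in Olfr73 over Olfr160 2 rose and 0 fell (0.25), beside the same shares of all genes (20.7% and 27.7%, 14.5% and 19.9%, 7.45% and 10.5%). In Olfr1507 over Olfr73, 2 rose without Olfr1507 replicate 3 or Olfr73 replicate 1 or 3. In Olfr73 over Olfr160, 4 rose without Olfr73 replicate 1, 0 without Olfr160 replicate 2, and 1 without Olfr1507 replicate 3, Olfr73 replicate 2 or 3 or Olfr160 replicate 1 or 3. In both limma-trend fits 3, 1 and 0 rose in the 3 comparisons. With library size alone these counts were 1 higher and 1 lower, 1 and 2, and 1 and 0, and the medians in Olfr1507 over Olfr160 and over Olfr73 turned to -0.05 and -0.14. Ncbp1, a cap-binding subunit, rose in Olfr1507 over Olfr160 (1.43 with SE 0.17, edgeR adjusted p = 0.000207) and over Olfr73 (1.38 with SE 0.17, edgeR adjusted p = 0.000527), and kept both calls under all 19 alternatives. Smg5, a decay adaptor, rose in Olfr1507 over Olfr160 (0.70 with SE 0.11, edgeR adjusted p = 0.000847) and in Olfr73 over Olfr160 (0.55 with SE 0.11, edgeR adjusted p = 0.0113), each lost in 3 alternatives, with adjusted p up to 0.587 and 0.221. Smg1, the kinase that phosphorylates Upf1, fell in Olfr1507 over Olfr73 (-0.83 with SE 0.19, edgeR adjusted p = 0.00881), and its rise in Olfr73 over Olfr160 (0.68 with SE 0.19, edgeR adjusted p = 0.0344) was lost in 9 alternatives, with adjusted p up to 0.164. The shares of other cell types' markers given above differ between the same groups, and their part in these changes was not tested.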

How the data were processed

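Per the submitters' processing notes, the authors used STAR 2.6.1, RSEM 1.3.1, DESeq2 (no version) and the mm10 build; the sources used here do not name the annotation release. The authors deposited, for each gene, the expected counts from RSEM and, separately, TPM. Columns carry older receptor names, matched to groups through RefSeq synonyms. Of the transcript identifiers, 98.7% were found in GENCODE M21, from which classes, coordinates, frames and sequences were taken; RefSeq (GRCm38.p6) biotypes were found for 276 members.

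Rounded counts went into edgeR 4.0.16 (R 4.3.3): filterByExpr, TMM, a robust quasi-likelihood fit on all 9 libraries and a Benjamini-Hochberg adjusted p under 0.05. The fit was tested on simulated data. CPM use the effective (TMM) library size. Alternatives used DESeq2 1.42.0 and limma 3.58.1, exact permutation tests scipy 1.17.1 and the search for relatives BLAST+ 2.17.0. Floors were 3 counts over a group; floors and intervals cover counting error only.

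The members, gene lists and tests were chosen with earlier results of these data known. Named were the 10 members with the highest mean CPM, the top 3 of each group, up to 8 called members with the lowest adjusted p per comparison, all within 1 Mb of a tagged receptor, neighbours of the first set, and the 2 list genes with the lowest adjusted p; members shown for their sequence, and Olfr1060-ps1, Olfr548-ps1 and the members of overlapping counts, were chosen after their values were seen.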

Additional observations from a re-analysis of the deposited data

How the results depend on the processing

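Without the 2 leading members, chosen after seeing the data, the share of untagged Olfr counts in Olfr73 minus Olfr160 turned to -0.0907 percentage points, against 0.734 with them. Restricted to coding members, also chosen later, the log2 TPM ratio to other Olfr genes was -0.16 (p = 0.414, exact sign-flip) and the difference in genes with 10 counts was 2.85 percentage points, with the sign opposite to that of all members. The median over genes with a count gave -1.93 and no longer passed. Members called lower in Olfr1507 over Olfr73 numbered 11 in DESeq2 and 3 in limma-trend on log2(TPM + 1), against 5, and over all genes 4115 and 3043 were lower, against 3261. In Olfr73 over Olfr160 limma-trend called 9 members lower, against 4, and 3095 genes, against 1714.

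Leaving out each library gave 13 to 23, 4 to 10 and 1 to 5 members called lower in Olfr1507 over Olfr160, Olfr1507 over Olfr73 and Olfr73 over Olfr160, and 6391 to 8890, 3657 to 5546 and 976 to 3062 genes. Replicate numbers did not pair the samples; with the replicate block 20, 6 and 5 members and 7398, 4804 and 2485 genes were called. With library size alone 1343 of 7605 called genes were higher in Olfr1507 over Olfr160 (TMM 3399 of 7939), and the median of all genes moved to -0.56. The 25 calls of 16 named members kept their sign in the 472 values that 19 alternatives gave, and 46 of these values, in 11 calls, no longer passed. Depth limits the members at 0: 3 counts correspond to 0.099 to 0.167 CPM per library.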

Other observations

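A further 13 Olfr symbols end in -ps without a number and were counted among the other Olfr genes. Of these, 7 reached 10 counts in a library and 3 were at 0 throughout. Olfr1177-ps had 0, 22 and 7 counts in Olfr1507, 0, 24 and 201 in Olfr73 and 61, 116 and 207 in Olfr160 libraries. Olfr105-ps had 0 in each Olfr1507 library, 0, 0 and 1 in Olfr73 and 235, 0 and 160 in Olfr160 libraries. Olfr104-ps had 0 in each Olfr1507 library, 0, 88 and 0 in Olfr73 and 81, 2 and 65 in Olfr160 libraries. All 3 are annotated as protein coding in GENCODE M21, with frames of 319, 305 and 322 codons.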
